A study of Mus musculus with 8 samples.

Results

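The genes described here are the core of the BCL2 family, the proteins that decide whether the outer membrane of the mitochondrion stays intact. They were chosen by name: the pro-survival genes Bcl2, Bcl2l1 and Mcl1, the effector genes Bax and Bak1, and the genes of the BH3-only proteins Bid, Bad, Bbc3, Pmaip1 and Bcl2l11. Every probe that carried one of these symbols in the deposited value table was taken, which gave 25 of 25697 probes for 9 of the 10 genes (of 16593 genes with a named probe). No probe was named Bax, so its expression was not analysed here. Of the 25 probes 23 were above the detection floor, the signal that background alone rarely reaches, on at least 2 of the 8 arrays and were tested. The other 2, both for Bcl2 (ILMN_1243345 and ILMN_2597272), were above the floor on no array.

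The arrays measured primary limb bud cells, fore and hind, taken from mice at embryonic day 11.5 of a 129XB6 strain with both copies of Sox4 and of Sox11 floxed (Sox4 fl/fl, 11 fl/fl), kept in culture for 6 h before treatment. AdeCre cells (n = 3 arrays) then received an adenovirus that expresses Cre recombinase for 24 h, and the labels call them mutant. AdeLacZ cells (n = 3) received an adenovirus that expresses LacZ for 24 h and are labelled a control. Untreated cells (n = 2) received no virus and are labelled wild type, although they carry the same floxed alleles. Whether Untreated cells were kept in culture for the further 24 h is not stated in the labels used here. Virus and time in culture therefore cannot be told apart in comparisons with Untreated cells. The title of the series names the survival of neural and mesenchymal progenitors, so the balance of survival and death genes is the question these comparisons address. No array holds cells without floxed alleles that received AdeCre, so what Cre does by itself and what the deletion does cannot be told apart. The labels do not say whether the arrays of a group came from separate cultures or litters, so each p-value is relative to a spread that may be technical.

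Proteins of the BCL2 family work by binding one another. BAX and BAK1, once active, open pores in the outer mitochondrial membrane and release cytochrome c, which starts the caspase cascade, while BCL2, BCL-XL (the product of Bcl2l1) and MCL1 hold them and the BH3-only proteins in check. BH3-only proteins carry the death signal: BIM (Bcl2l11) is made when growth factors are withdrawn, PUMA (Bbc3) and NOXA (Pmaip1) are induced by p53, BID is cut by caspase-8 below death receptors, and BAD is held inactive by phosphorylation. In the mouse limb these proteins are known for the removal of the tissue between the digits, which fails when Bax and Bak1 are lost together.

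Forkhead factors of the FOXO group are known to act on Bcl2l11 and Bbc3, and the floxed genes encode SOX factors. The stretches upstream of the annotated starts of these genes are therefore shown where they hold a core motif of either group, together with 1 stretch of Bcl2l1 that holds a core motif of the TEAD factors, which bind DNA for YAP and TAZ. The sequences are from RefSeq on GRCm38.p6. Capitals mark the motifs, and each window is the 250 bases before a start. The first Bcl2l11 window is chr2:128125788-128126037 on the plus strand, the second is chr2:128127325-128127574 on the plus strand, the Bbc3 window is chr7:16310011-16310260 on the plus strand, and the Bcl2l1 window is chr2:152831729-152831978 on the minus strand.
Bcl2l11, first window: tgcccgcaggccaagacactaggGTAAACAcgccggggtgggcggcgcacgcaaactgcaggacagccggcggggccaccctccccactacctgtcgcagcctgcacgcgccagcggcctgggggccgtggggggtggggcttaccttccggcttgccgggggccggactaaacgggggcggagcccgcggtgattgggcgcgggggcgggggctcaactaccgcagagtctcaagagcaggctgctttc
Bcl2l11, second window: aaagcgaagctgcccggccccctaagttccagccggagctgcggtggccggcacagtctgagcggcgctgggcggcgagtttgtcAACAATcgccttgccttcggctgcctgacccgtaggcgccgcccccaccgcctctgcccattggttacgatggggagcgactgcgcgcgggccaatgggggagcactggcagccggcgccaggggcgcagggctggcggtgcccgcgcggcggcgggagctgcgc
Bbc3: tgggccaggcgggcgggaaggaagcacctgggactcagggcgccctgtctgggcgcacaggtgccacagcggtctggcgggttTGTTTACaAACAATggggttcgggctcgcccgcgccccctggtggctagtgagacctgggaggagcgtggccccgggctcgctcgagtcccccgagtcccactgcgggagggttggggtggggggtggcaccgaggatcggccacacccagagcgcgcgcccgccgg
Bcl2l1: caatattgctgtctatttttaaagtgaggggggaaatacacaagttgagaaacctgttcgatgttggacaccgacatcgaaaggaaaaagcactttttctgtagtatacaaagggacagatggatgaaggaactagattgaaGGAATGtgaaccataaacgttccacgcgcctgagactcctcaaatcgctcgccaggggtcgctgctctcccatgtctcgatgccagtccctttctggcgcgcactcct
The forkhead core GTAAACA lies 227 bases before the start in the first Bcl2l11 window and, as its reverse complement TGTTTAC, 167 bases before the start in the Bbc3 window. The SOX core AACAAT lies 165 bases before the start in the second Bcl2l11 window and 159 bases before it in the Bbc3 window, where the motifs stand side by side without overlap. The TEAD core GGAATG lies 108 bases before the start in the Bcl2l1 window shown, and no other Bcl2l1 window held it. As its reverse complement CATTCC it also lies 199 bases before the start in the Mcl1 window, which is not shown. Both strands were searched in 15 windows of 9 genes of the family, and each of the 3 motifs was in 2 of these windows. These 9 genes include Bax and leave out Pmaip1, which had no window. Among all 32851 windows of this length, 3.17% held the forkhead core, 9.42% the SOX core and 12.6% the TEAD core. A match describes these letters only.

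Several facts of the whole series bear on the values below. The deposited intensities had been put on 1 shared distribution, and 55.9% to 56.0% of the probes were above the floor of 8.87 to 8.93 intensity units on each array. Sox4, one of the targeted genes, was at 10.9, 11.8 and 12.9 intensity units on the AdeCre arrays, against 66.5, 75.9 and 78.1 on the AdeLacZ arrays and 68.5 and 110.7 on the Untreated arrays, a log2 change of -1.31 ± 0.13 between AdeCre and AdeLacZ (SE, adjusted p = 0.00114, limma). Where its probe lies relative to the floxed part is not known here, and Sox11 was not analysed here. All 11 limb mesenchyme markers with a probe were above the floor on at least 2 arrays, with a summed signal of 2299 to 2686 in AdeCre, 2558 to 2770 in AdeLacZ and 2666 to 2846 in Untreated cells. Single markers went both ways: in AdeCre against Untreated cells Meis2 rose (log2 0.99) and Hoxd13 (-1.05) and Twist1 (-0.53) fell, and in AdeCre against AdeLacZ cells Hand2 fell (-0.47). Interferon-induced genes summed to 4576 to 6415, 5938 to 7809 and only 249 and 1628 in the same order, so the Untreated arrays stand apart from one another, and the changes against Untreated described below are also given without 1 of them.

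In AdeCre against AdeLacZ cells, none of the pro-survival probes passed, although a Bcl2l1 probe had the largest change of the family (-0.74, adjusted p = 0.0927), and the pro-death genes differed in both directions with 1 call. One of the 23 tested probes passed, a Bcl2l11 probe that fell by 1.42-fold. That is 4.35% of the probes of the family, beside 5.03% of all 15944 tested probes (3.44% lower, 1.59% higher). At an unadjusted p under 0.05 the counts were 1 of 10 pro-survival probes and 8 of 13 pro-death probes (61.5%), beside 21.8% of all tested probes. The median log2 change was -0.08 over the 10 pro-survival probes, -0.14 over the 13 pro-death probes and 0.01 over all tested probes.

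Among the pro-survival genes, Mcl1 gave 2170.2, 2226 and 2363 intensity units in AdeCre cells, against 2198, 2034 and 2315 in AdeLacZ cells. The arrays overlapped throughout, and the log2 change was 0.05 ± 0.09 (SE, 95% interval -0.16 to 0.26, adjusted p = 0.823). MCL1 is a short-lived protein that is turned over within hours, so its transcript is only one of the layers that set its level.

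Bcl2 was measured by 6 tested probes whose changes ran from -0.34 to 0.08 on the log2 scale. Its brightest probe (ILMN_1249021) gave 142, 130.2 and 178 intensity units in AdeCre cells, against 144, 172 and 143 in AdeLacZ cells, a log2 change of -0.03 ± 0.13 (SE, adjusted p = 0.931). The tightest probe (ILMN_1249366) gave 120.3, 116 and 113 intensity units in AdeCre cells, against 123, 108 and 119.8 in AdeLacZ cells. Its groups overlapped, and the 95% interval of its log2 change ran from -0.21 to 0.20. The remaining pair of probes well above the floor, ILMN_2706514 and ILMN_2682162, overlapped between groups as well, with log2 changes of 0.08 (adjusted p = 0.787) and -0.30 ± 0.17 (adjusted p = 0.344). The dim probes ILMN_1215796 and ILMN_2597567 were above the floor on only 2 of 3 and 1 of 3 AdeCre arrays.

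Bcl2l1, the gene of BCL-XL, had 3 probes that did not give the same size of change. The brightest (ILMN_2698430) gave 645, 504 and 568 intensity units in AdeCre cells, against 639, 716 and 515 in AdeLacZ cells, with a log2 change of -0.11 ± 0.14 (SE, adjusted p = 0.698). The second (ILMN_2647885) gave 188, 112 and 124 in AdeCre cells, against 162, 179 and 155 in AdeLacZ cells, with a log2 change of -0.22 ± 0.17 (adjusted p = 0.495). On both, the AdeCre arrays ranged from below the AdeLacZ arrays to within or above them.
The third (ILMN_2742557) gave 139, 72.2 and 61.5 intensity units in AdeCre cells, against 142, 226 and 137 in AdeLacZ cells. AdeCre replicate 1 lay inside the AdeLacZ range and the other two AdeCre arrays below it, and the log2 change was -0.74 ± 0.23 (SE, adjusted p = 0.0927). Without AdeCre replicate 1 it was -1.01 with an adjusted p of 0.0324. This was the only 1 of the 8 fits without 1 array that passed. Over these fits the change ran from -1.01 to -0.54, with adjusted p up to 0.272. The mean over the 3 probes changed by -0.36 ± 0.17 (adjusted p = 0.254).

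**Figure D1:**
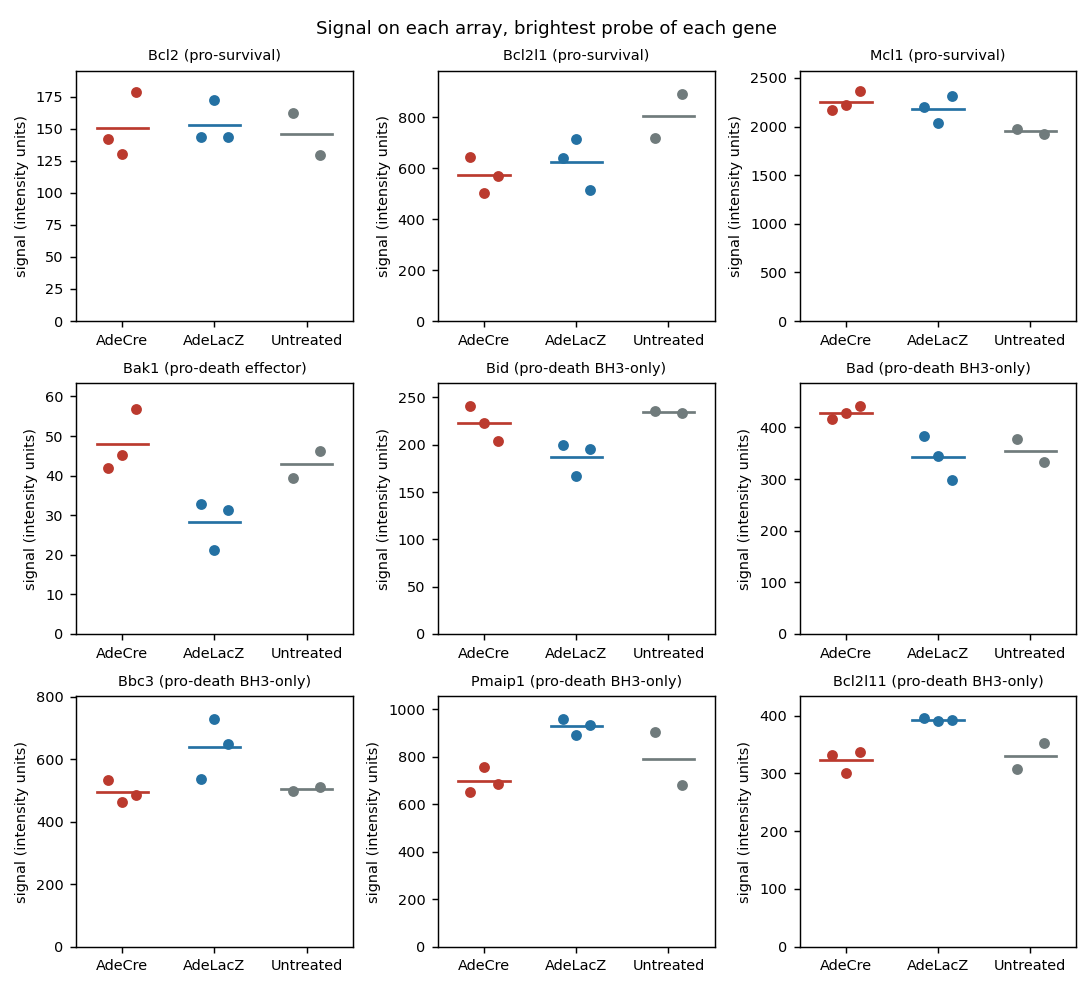
Deposited signal in intensity units (vertical axis, from 0) on each AdeCre, AdeLacZ and Untreated array for the brightest probe of each of the 9 measured genes. Points are arrays and bars are group means. On these brightest probes the AdeCre and AdeLacZ points do not overlap for the 6 pro-death genes and do for the 3 pro-survival genes, beside 9 of 13 pro-death probes in all and 28.3% of all tested probes without overlap, and levels of different genes are not on one scale because probes differ in brightness.

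The pro-death genes separated the AdeCre and AdeLacZ arrays more often than the pro-survival genes did. Over the tested probes, both comparisons with Untreated cells went the other way on overlap, as given below. At an unadjusted p under 0.05 only AdeCre against Untreated did. On 9 of the 13 pro-death probes (69.2%) the 3 AdeCre arrays did not overlap with the 3 AdeLacZ arrays, 3 of them higher and 6 lower. The same held for 0 of the 10 pro-survival probes, and for 28.3% of all tested probes (14.6% higher, 13.8% lower). On the brightest probe of each gene the arrays did not overlap for any of the 6 pro-death genes: Bak1, Bid and Bad were higher in AdeCre cells and Bbc3, Pmaip1 and Bcl2l11 were lower. Probes of 1 gene share their transcript and are not independent, and the difference between pro-death and pro-survival genes was not tested. None of the 6 brightest probes passed the adjusted threshold in limma, and 5 of the 6 had an unadjusted p under 0.05.

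Bak1, the effector that sits in the mitochondrial membrane from the start, gave 42.0, 45.2 and 56.8 intensity units in AdeCre cells, against 32.7, 21.2 and 31.3 in AdeLacZ cells. Every AdeCre array was above every AdeLacZ array, and the log2 change of 0.42 ± 0.12 (SE, 95% interval 0.16 to 0.68) missed the threshold at an adjusted p of 0.0671. It passed at 0.0489 when only probes above the floor on every array of a group were tested, the only 1 of 17 other settings in which it did. In the 8 fits without 1 array the adjusted p was 0.0748 to 0.211.

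Bad, whose protein binds BCL2 and BCL-XL when survival signalling stops, gave 417, 427 and 442 intensity units in AdeCre cells, against 384, 345 and 299 in AdeLacZ cells. The AdeCre arrays lay close together above all AdeLacZ arrays, with a log2 change of 0.31 ± 0.11 (SE, adjusted p = 0.136). Bid gave 241, 223 and 203 intensity units in AdeCre cells on its brighter probe (ILMN_3161878), against 199.5, 167 and 196 in AdeLacZ cells, with a log2 change of 0.22 ± 0.10 (adjusted p = 0.254). The lowest AdeCre array was just above the highest AdeLacZ array. The dim Bid probe (ILMN_2757287) went the other way, at 12.5, 2.90 and -0.198 intensity units in AdeCre cells, against 15.1, 11.0 and 14.3 in AdeLacZ cells. It was above the floor on 1 of 3 AdeCre arrays and 3 of 3 AdeLacZ arrays, and its log2 change was -0.33 ± 0.13 (SE, adjusted p = 0.186), so the mean over both probes gave -0.06 ± 0.11.

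Bcl2l11, the gene of BIM, was lower in AdeCre cells on each of its 3 probes that were well above the floor. The probe that passed (ILMN_2590638) gave 88.3, 70.9 and 92.5 intensity units in AdeCre cells, against 130.3, 124 and 138 in AdeLacZ cells. All AdeCre arrays were below all AdeLacZ arrays, and the log2 signal averaged 6.82 ± 0.15 in AdeCre and 7.33 ± 0.06 in AdeLacZ cells (SD, n = 3 each). It fell by 0.50 ± 0.10 on the log2 scale (SE, 95% interval -0.73 to -0.28, adjusted p = 0.0224, limma). The call was lost when AdeCre replicate 1 or 2 or any AdeLacZ replicate was left out (adjusted p = 0.0527 to 0.0845).
The brightest Bcl2l11 probe (ILMN_3157568) gave 332, 301 and 337 intensity units in AdeCre cells, against 396, 391 and 392 in AdeLacZ cells. The groups did not overlap, and the log2 change of -0.26 ± 0.10 did not pass (SE, adjusted p = 0.145). ILMN_1229255 gave 35.4, 27.9 and 23.1 in AdeCre cells, against 38.1, 42.9 and 45.0 in AdeLacZ cells, also without overlap, with a log2 change of -0.30 ± 0.11 (adjusted p = 0.162). The fourth probe (ILMN_3078327) was above the floor on 0 of 3 AdeCre and 1 of 3 AdeLacZ arrays and gives no usable fold. The mean over the 4 probes changed by -0.29 ± 0.08 (SE, adjusted p = 0.0737). Markers of other cells differed in the same comparison, in which 5.03% of all tested probes passed. Of these markers, 3 of 5 tested erythroid and 2 of 4 tested neuron and glia markers fell, and 2 of 5 tested skeletal muscle markers rose. Their part in the differences of the family was not tested.

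The genes of the p53-induced proteins did not pass on any probe. Pmaip1 gave 653, 759 and 686 intensity units in AdeCre cells on its brighter probe (ILMN_2670625), against 961, 890.2 and 934 in AdeLacZ cells. The gap between the groups was wider than the spread within either, and the log2 change was -0.40 ± 0.12 (SE, adjusted p = 0.0827). On the second Pmaip1 probe (ILMN_1245289) the AdeCre arrays were also all below the AdeLacZ arrays, by a smaller step of -0.14 ± 0.14 (SE, adjusted p = 0.611).
Bbc3 gave 532, 463 and 487 intensity units in AdeCre cells on its brightest probe (ILMN_2920736), against 539, 729 and 651 in AdeLacZ cells, with a log2 change of -0.35 ± 0.12 (SE, adjusted p = 0.124). AdeLacZ replicate 1 was close to AdeCre replicate 1, and the other two AdeLacZ arrays were well above. The other Bbc3 probes were dim, at 7.31 to 31.5 intensity units over all 8 arrays, and their groups overlapped (log2 changes of 0.11 and -0.10, adjusted p = 0.718 and 0.772). The mean over the probes changed by -0.11 ± 0.09 for Bbc3 (SE, adjusted p = 0.497) and by -0.27 ± 0.12 for Pmaip1 (adjusted p = 0.228).

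**Figure D2:**
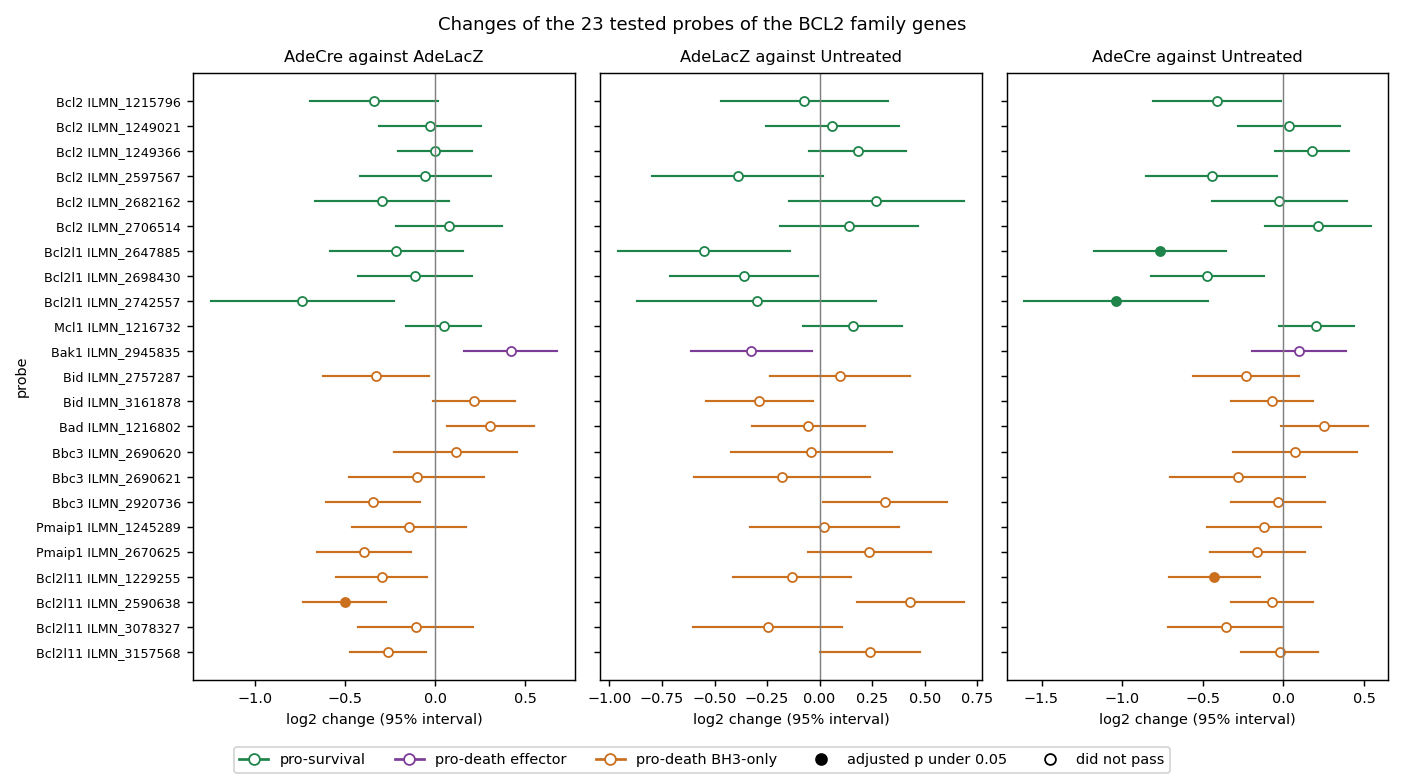
Log2 change (horizontal axis) with its 95% interval for each of the 23 tested probes in the 3 comparisons, with separate horizontal scales. Filled points passed at an adjusted p under 0.05 in limma: 1 Bcl2l11 probe in AdeCre against AdeLacZ, none in AdeLacZ against Untreated, and 2 Bcl2l1 probes and 1 Bcl2l11 probe in AdeCre against Untreated.

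AdeLacZ against Untreated cells compares virus without Cre with no virus, and perhaps also different times in culture. Here 0 of the 23 probes passed in limma, beside 5.23% of all tested probes (2.5% lower, 2.73% higher). At an unadjusted p under 0.05 there were 7 of 23 (30.4%), beside 20.8% of all tested probes. The arrays of the groups did not overlap on 10 of the 23 probes (43.5%), 5 lower and 5 higher, beside 38.3% of all tested probes (19.4% lower, 18.9% higher). By role this was 50% of the pro-survival and 38.5% of the pro-death probes. The unadjusted p was under 0.05 for 20% and 38.5%, and the difference between the roles was not tested. Of the Bcl2 probes, ILMN_2597567 was lower (log2 change -0.39, adjusted p = 0.26, limma) and ILMN_1249366 higher (0.18, adjusted p = 0.355), both without overlap. Without Untreated replicate 1 or 2 they gave -0.27 or -0.51 and 0.23 or 0.14. The Bcl2l11 probe ILMN_2590638 had the smallest p, at 130.3, 124 and 138 intensity units in AdeLacZ cells, against 90.6 and 88.1 in Untreated cells. All AdeLacZ arrays lay above both Untreated arrays, with a log2 change of 0.43 ± 0.12 (SE, adjusted p = 0.0581), so this probe was higher in AdeLacZ cells than in either other group. Without Untreated replicate 1 or 2 the change was 0.45 (adjusted p = 0.228) or 0.42 (0.149). On the brightest Bcl2l11 probe the AdeLacZ arrays were at 396, 391 and 392, against 307 and 352 in Untreated cells (log2 change 0.24, adjusted p = 0.237). The brightest Bbc3 probe had 539, 729 and 651 intensity units in AdeLacZ cells, against 499 and 513 in Untreated cells (log2 change 0.31 ± 0.13, adjusted p = 0.213).
Bak1 and Bid had the opposite sign here. Bak1 was at 32.7, 21.2 and 31.3 intensity units in AdeLacZ cells, against 39.3 and 46.3 in Untreated cells (log2 change -0.32 ± 0.13, adjusted p = 0.185), and the brighter Bid probe at 199.5, 167 and 196 against 236 and 233 (-0.29 ± 0.12, adjusted p = 0.186). Both comparisons use the AdeLacZ arrays, so opposite signs in them are not separate observations. Without Untreated replicate 1 or 2 the log2 changes were 0.15 or 0.33 for the brightest Bcl2l11 probe, 0.29 or 0.33 for Bbc3, -0.39 or -0.26 for Bak1 and -0.28 or -0.29 for Bid, with adjusted p-values from 0.178 to 0.671. The median log2 change was -0.01 over the pro-survival and -0.04 over the pro-death probes, beside -0.01 over all tested probes.

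In AdeCre against Untreated cells Bcl2l1, on the pro-survival side, carried 2 of the 3 calls. Of the 23 probes 3 passed, all lower (13.0%), beside 13.7% of all tested probes (7.08% lower, 6.61% higher), so the share of the family was near that of the array. The unadjusted p was under 0.05 for 30.4% of the probes of the family and 28.5% of all tested probes. On 11 of the 23 probes (47.8%) the groups did not overlap, 7 lower and 4 higher, beside 43.2% of all tested probes (21.3% lower, 21.9% higher). By role this was 80% of the pro-survival and 23.1% of the pro-death probes, and the unadjusted p was under 0.05 for 50% and 15.4%. The pro-survival probes without overlap were 5 lower and 3 higher, with Bcl2 probes on both sides, as given below. The median log2 change was -0.22 over the pro-survival and -0.07 over the pro-death probes. On the brightest probe of each gene the medians were 0.03 and -0.03. The difference between the roles was not tested here either. The Bcl2l1 probe ILMN_2647885 gave 188, 112 and 124 intensity units in AdeCre cells, against 218 and 299 in Untreated cells. It fell by 0.77 ± 0.19 on the log2 scale (SE, 1.70-fold, adjusted p = 0.0214, limma). ILMN_2742557 gave 139, 72.2 and 61.5 in AdeCre cells, against 187 and 233 in Untreated cells, and fell by 1.04 ± 0.26 (SE, 2.05-fold, adjusted p = 0.0234). Its fall was the larger of the pair, and on both probes every AdeCre array was below both Untreated arrays.
The brightest Bcl2l1 probe gave 645, 504 and 568 intensity units in AdeCre cells, against 719 and 891 in Untreated cells. It did not overlap either, and its log2 change was -0.47 ± 0.16 (SE, adjusted p = 0.0780). The mean over the 3 probes changed by -0.76 ± 0.19 (SE, adjusted p = 0.0242). AdeLacZ cells lay between, at -0.55 ± 0.19 against Untreated on ILMN_2647885 (adjusted p = 0.119) and -0.30 ± 0.26 on ILMN_2742557 (adjusted p = 0.557).

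The Bcl2l1 calls rested on few arrays. Without Untreated replicate 2, the array with the higher interferon-induced signal, the log2 changes were -0.56 (adjusted p = 0.148) and -0.90 (adjusted p = 0.130). Without Untreated replicate 1 they were -0.97 (adjusted p = 0.0451) and -1.18 (adjusted p = 0.0905). Both calls were also lost without AdeCre replicate 2 or 3 (adjusted p = 0.0594 to 0.0678). The brightest Bcl2l1 probe gave -0.62 without Untreated replicate 1 and -0.32 without replicate 2 (adjusted p = 0.111 and 0.339).
BCL-XL is known to keep maturing red cells alive. Erythroid markers differed among the groups, also in AdeCre against AdeLacZ cells, where no Bcl2l1 probe passed. The 6 erythroid genes with a probe summed to 1329 to 1889 intensity units in AdeCre, 4176 to 4733 in AdeLacZ and 6098 to 7225 in Untreated cells. Of the 5 tested, 4 fell in AdeCre against Untreated cells and 3 in AdeCre against AdeLacZ cells, the globin genes Hba-a1, Hba-x and Hbb-y, and Alas2 was above the floor on no array. Macrophage markers summed to 134 to 156, 146 to 170 and 427 to 583 intensity units in the same order of groups, with 8 of 9 genes tested and Ptprc above the floor on no array. Of these 8, 6 fell in AdeCre against Untreated cells, 3 in AdeLacZ against Untreated and 0 in AdeCre against AdeLacZ. Of all tested probes 13.7%, 5.23% and 5.03% passed in these comparisons. Other cell markers differed too. Surface ectoderm markers summed to 519 to 586, 419 to 471 and 252 to 313 intensity units in that order (3 of 6 tested rose in AdeCre against Untreated cells, and Krt5 was above the floor on no array), and skeletal muscle markers to 9240 to 10459, 6955 to 7442 and 5340 to 6505 (3 of 5 rose, Pax3 above the floor on no array). Endothelial markers summed to 74.5 to 96.4, 91.6 to 99.2 and 132 to 145 (1 of 3 fell, Cdh5 above the floor on no array), and neuron and glia markers to 228 to 288, 391 to 445 and 296 to 314 (1 of 4 fell). Their part in the Bcl2l1 result was not tested, and fewer cells of a type cannot be told apart from less RNA per cell in such samples.

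The third call against Untreated cells was Bcl2l11 on ILMN_1229255. It gave 35.4, 27.9 and 23.1 intensity units in AdeCre cells, against 42.0 and 56.1 in Untreated cells. It fell by 0.43 ± 0.13 on the log2 scale (SE, adjusted p = 0.0490), which only just passed, and without Untreated replicate 2 it was -0.30 (adjusted p = 0.244). The other Bcl2l11 probes did not repeat it: ILMN_2590638 gave -0.07 ± 0.12 (adjusted p = 0.735) and ILMN_3157568 gave -0.02 (adjusted p = 0.921), while ILMN_3078327, above the floor on no AdeCre array, was at least 1.10-fold lower (adjusted p = 0.175). Mcl1 gave 2170.2, 2226 and 2363 intensity units in AdeCre cells, against 1977 and 1924 in Untreated cells, higher on every array by 0.20 ± 0.11 (SE, adjusted p = 0.237). Bcl2 went both ways. Its dim probes ILMN_1215796 (-0.41, adjusted p = 0.16, limma) and ILMN_2597567 (-0.45, 0.139) were lower without overlap. ILMN_1249366 (0.18, 0.296) and ILMN_2706514 (0.22, 0.384) were higher without overlap. ILMN_1249021 (0.03) and ILMN_2682162 (-0.03) overlapped, and their sign turned with the Untreated array left out. Without Untreated replicate 1 or 2 the lower pair gave -0.34 or -0.48 and -0.33 or -0.56. The higher pair gave 0.22 or 0.13 and 0.21 or 0.23. For Bak1, Bid, Bbc3 and Pmaip1 the AdeCre and Untreated arrays overlapped on every probe, with log2 changes from -0.28 to 0.10. Some of these changes depended on the Untreated array. Without Untreated replicate 1 or 2 the Pmaip1 probes gave 0.19 or -0.43 (ILMN_1245289) and 0.04 or -0.36 (ILMN_2670625). Bbc3 gave -0.17 or 0.32 on the dim ILMN_2690620. The Bak1, Bid and remaining Bbc3 probes kept their sign. Bad gave 417 to 442 intensity units in AdeCre cells, against 378 and 332 in Untreated cells (log2 change 0.25 ± 0.12, adjusted p = 0.202). Without Untreated replicate 1 or 2 the change was 0.22 or 0.18 for Mcl1 and 0.34 or 0.17 for Bad, with adjusted p-values from 0.241 to 0.531.

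**Figure D3:**
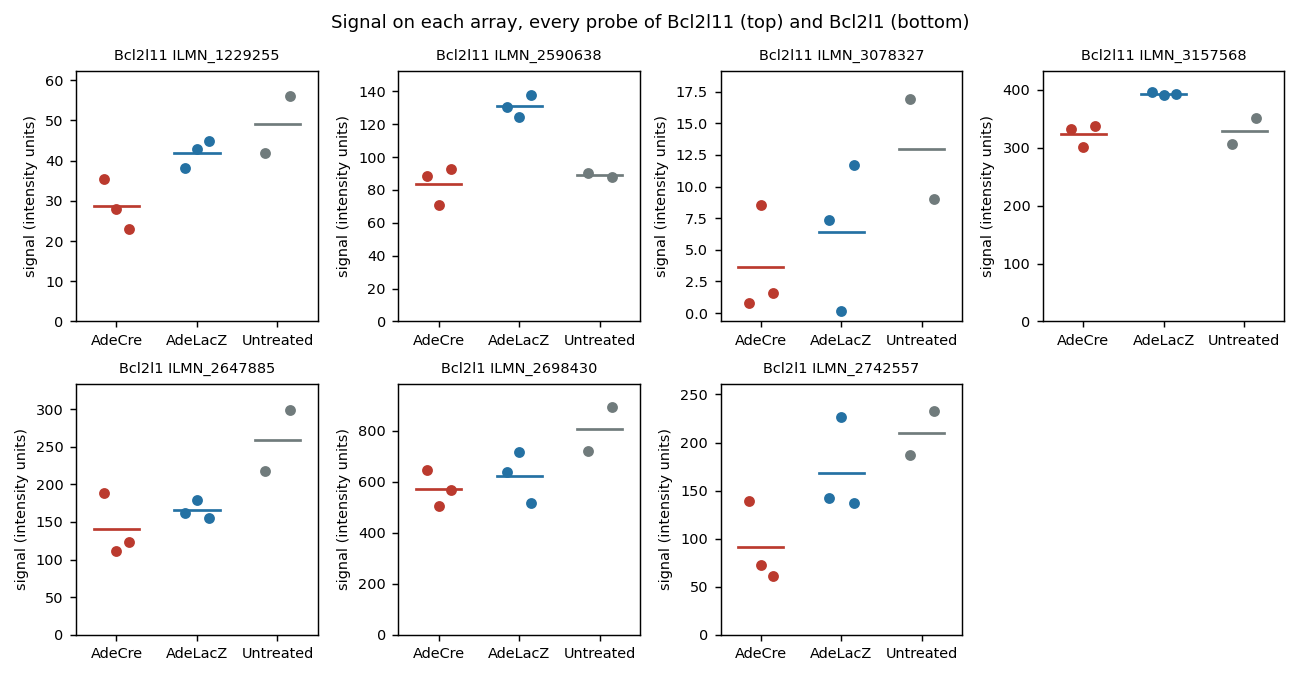
Deposited signal in intensity units (vertical axis) on each array for the 4 Bcl2l11 probes (top) and the 3 Bcl2l1 probes (bottom); bars are group means. ILMN_2590638 and ILMN_3157568 of Bcl2l11 are highest on the AdeLacZ arrays, whereas ILMN_1229255 and the Bcl2l1 probes have their highest means in Untreated cells.

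The remaining relatives and partners of BCL2 and the genes around the family mostly did not pass. Of 16 such genes with a probe, 9 were tested and 1 fell in AdeCre against AdeLacZ cells, with a median log2 change of -0.11. Of all tested probes 5.03% passed there (3.44% lower). The unadjusted p was under 0.05 for 3 of the 9, beside 21.8% of all tested probes. The gene that fell was Bnip2, named for its interaction with the adenovirus E1B protein and BCL2. It gave 981, 858 and 877 intensity units in AdeCre cells, against 1361, 1436 and 1323 in AdeLacZ cells and 1422 and 1327 in Untreated cells. All AdeCre arrays were below every other array, and the log2 change was -0.59 ± 0.10 against AdeLacZ (SE, adjusted p = 0.0107) and -0.59 ± 0.11 against Untreated (adjusted p = 0.00624). Against AdeLacZ the adjusted p was 0.0507 without AdeLacZ replicate 2, and against Untreated it was 0.0582 without Untreated replicate 1. Becn1, the autophagy protein that BCL2 binds, gave -0.21 ± 0.09 (adjusted p = 0.225) and Bmf, another BH3-only gene, -0.34 ± 0.15 (adjusted p = 0.230) against AdeLacZ. Bcl2a1c, Bcl2l10, Bik, Hrk, Bcl2l14 and Bnip3 were above the floor on no array.

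Downstream of the mitochondrion, 0 of 10 tested apoptosome and IAP genes passed in limma on their brightest probe in any of the 3 comparisons. In AdeCre against AdeLacZ cells 2 of them had an unadjusted p under 0.05, beside 21.8% of all tested probes. The 3 with the smallest p in AdeCre against AdeLacZ cells were Dffa, the inhibitor of the caspase-activated nuclease (-0.46 ± 0.15, adjusted p = 0.104), Cycs, the gene of cytochrome c (0.48 ± 0.21, adjusted p = 0.212), and Diablo, which relieves caspases from IAP proteins (0.16 ± 0.09, adjusted p = 0.352). A dimmer probe of Birc2, an inhibitor of apoptosis, rose by 0.36 ± 0.10 in AdeCre against Untreated cells (adjusted p = 0.0401), a call that was lost without any 1 array (adjusted p = 0.0557 to 0.151), and its brightest probe gave -0.02 (adjusted p = 0.940). Upstream of BID, 0 of 6 tested death receptor genes passed in limma in any comparison, and 0, 1 and 1 had an unadjusted p under 0.05 in AdeCre against AdeLacZ, AdeLacZ against Untreated and AdeCre against Untreated cells. In the same order 5.03%, 5.23% and 13.7% of all tested probes passed, and 21.8%, 20.8% and 28.5% had an unadjusted p under 0.05. Fas, the death receptor, was nearest in AdeCre against AdeLacZ cells at 0.23 ± 0.12 (adjusted p = 0.289).

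Of the transcription factors known to act on the family, Myc, Atf4, Foxo1 and Stat3 passed, all in AdeCre against Untreated cells. Of 10 tested, 0 passed in AdeCre against AdeLacZ, 0 in AdeLacZ against Untreated, and 1 rose and 3 fell in AdeCre against Untreated cells, with a median log2 change of -0.17 beside 0.00 over all tested probes. Of all tested probes 5.03%, 5.23% and 13.7% passed in the same order, so that comparison has more calls across the whole array. At an unadjusted p under 0.05 the counts were 4, 2 and 6 of 10, beside 21.8%, 20.8% and 28.5% of all tested probes. Myc, whose protein sensitises cells to death, gave 69.7, 82.8 and 76.5 intensity units in AdeCre cells, against 124 and 143 in Untreated cells, and fell by 0.62 ± 0.11 on the log2 scale (SE, adjusted p = 0.00619). This call held without any 1 array (adjusted p = 0.00985 to 0.0414). Atf4, a stress factor, fell by 0.42 ± 0.10 (adjusted p = 0.0174, but 0.0533 without AdeCre replicate 2 and 0.108 without Untreated replicate 1). Foxo1 fell by 0.41 ± 0.12 (adjusted p = 0.0396), a call that was lost on leaving out any array but AdeCre replicate 1 (adjusted p = 0.0563 to 0.195). Stat3, which acts on Bcl2l1 and Mcl1, rose by 0.48 ± 0.12 on its brightest probe (adjusted p = 0.0255), and all 3 of its probes passed. That call was lost without AdeCre replicate 1 or 2 (adjusted p = 0.0529 and 0.0718) or Untreated replicate 1 (0.201). In AdeCre against AdeLacZ cells Myc gave -0.36 ± 0.10 (adjusted p = 0.0702) and Foxo1 was lower without overlap (-0.26 ± 0.10, adjusted p = 0.176). Stat3 was higher there without overlap on its brightest probe and did not pass. It gave 946, 991 and 957 intensity units in AdeCre cells, against 744, 724 and 836 in AdeLacZ cells.

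Genes that regulate MCL1, BAD and BAX after translation gave 22 tested genes, and 0 of them passed on the brightest probe in AdeCre against AdeLacZ cells in limma, with 5 at an unadjusted p under 0.05. Of all tested probes 5.03% passed there and 21.8% had an unadjusted p under 0.05. A dimmer probe of Btrc, a ubiquitin ligase subunit, rose by 0.53 ± 0.13 (SE, adjusted p = 0.0464), which was lost on leaving out any AdeCre or AdeLacZ array (adjusted p = 0.0548 to 0.133), and its brightest probe gave 0.33 ± 0.11 (adjusted p = 0.116). Against Untreated cells, Huwe1, the ubiquitin ligase of MCL1, rose in AdeCre cells by 0.85 ± 0.18 (adjusted p = 0.0108, but 0.0819 and 0.0520 without Untreated replicate 1 or 2). Ppp3ca, the catalytic subunit of calcineurin, which dephosphorylates BAD, rose in AdeLacZ cells by 0.55 ± 0.13 (adjusted p = 0.0349) and in AdeCre cells by 0.44 ± 0.13 (adjusted p = 0.0471). The first call was lost without AdeLacZ replicate 1 or 3, either Untreated array or AdeCre replicate 2 (adjusted p = 0.0542 to 0.200), and the second without AdeCre replicate 2 or 3, AdeLacZ replicate 1 or 3 or either Untreated array (adjusted p = 0.0609 to 0.185).

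**Figure D4:**
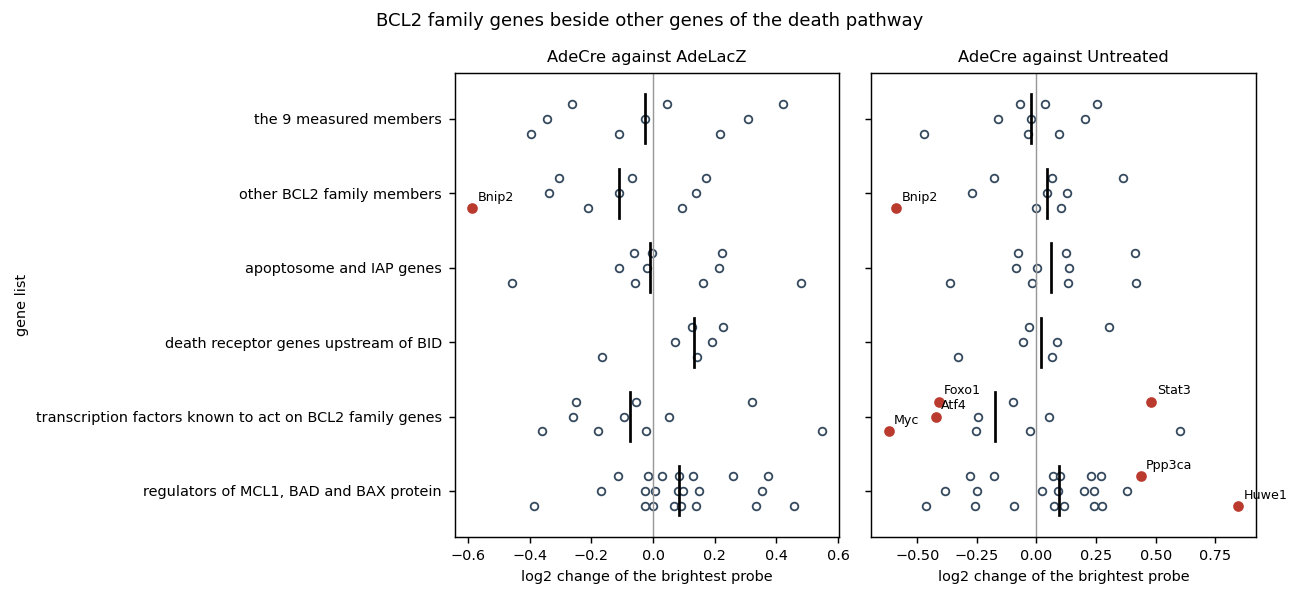
Log2 change (horizontal axis) of the brightest probe of each tested gene, by list (vertical axis), in AdeCre against AdeLacZ and AdeCre against Untreated cells; black bars are list medians. Filled, named points passed at an adjusted p under 0.05: Bnip2 alone in AdeCre against AdeLacZ, and Bnip2, Myc, Atf4, Foxo1, Stat3, Huwe1 and Ppp3ca in AdeCre against Untreated.

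For the 2 genes of the family that differed most among the 3 groups, the probes with the most similar pattern over the 8 arrays are given as a description. The Bcl2l11 probe ILMN_2590638 was followed most closely by Ncbp1 (Pearson r = 0.978), Cdca2 (r = 0.965) and Pcdhb22 (r = 0.962). The Bcl2l1 probe ILMN_2742557 was followed by Thoc5 (r = 0.982), Tle4 (r = 0.976) and Lrrc8a (r = 0.957). These were picked as the highest values over all tested probes, on arrays that fall into the same groups.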

How the data were processed

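Total RNA of 8 samples of mouse limb bud cells had been hybridised to Illumina bead arrays. The authors deposited 1 intensity for each probe on each array, with background subtracted, and per the submitters' processing notes BeadStudio 2.1 was used; the normalization is not given in the sources used here. At equal rank the arrays were within 0.19 intensity units of each other. Another 32 columns of per-sample values could not be tied to samples and were not used.

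Intensities were corrected with normexp (offset 16) in limma 3.58.1 (R 4.3.3) and put on the log2 scale; the offset shrinks changes of dim probes. The detection floor of each array was 1.645 times a background SD estimated from its negative values mirrored around 0. Probes above it on at least 2 of 8 arrays were tested (15944, 62.0%). All arrays entered 1 linear model with a term for each of the 3 groups (lmFit and eBayes, 5 residual and 5.64 prior degrees of freedom), and 2-sided p-values were Benjamini-Hochberg adjusted over all tested probes; an adjusted p under 0.05 passed. Precision is limited by the number of arrays, with a median SE of 0.119 (log2) for AdeCre against AdeLacZ and 0.134 for the other comparisons. Probe names came from the platform annotation (23978 probes with 1 symbol, 1719 with none). Levels of different probes are not compared.

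The genes and lists were chosen with earlier results of these data known. Every probe of the family is reported; from the other lists, genes past the threshold in any comparison are named, or up to 3 with the smallest p. The brightest probe stands for a gene of a list. The code was tested on simulated data. Alternatives covered background correction, normalization, the filter, array weights, a trended and robust prior, a block for the replicate number, 2-group fits, probe means and leaving out each array. Array numbers were not treated as pairs in the main model. Same-numbered AdeCre and AdeLacZ arrays correlated at 0.0225, -0.00143 and -0.0569 in their deviations from the group means. Same-numbered pairs with Untreated arrays correlated at -0.142 to 0.017. With 2 or 3 arrays in a group these values cannot show whether same-numbered arrays shared a culture or litter. Figures used matplotlib 3.10.9 in Python 3.11.15.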

Additional observations from a re-analysis of the deposited data

How the results depend on the processing

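Over 17 other settings no called probe of the family turned its direction. In AdeCre against AdeLacZ, the 1 call among the family became 4 with an offset of 50, 4 with a trended, robust prior and 2 with the stricter filter on dim probes, and 0 without background correction, without a filter or as probe means; leaving out 1 array gave 0 to 1. The added calls were Bcl2l1 (ILMN_2742557), Bbc3 and Pmaip1 with the offset and the trended prior, and Bak1 with the filter. In AdeLacZ against Untreated, 0 became 2, 1 and 1 with the offset of 50, the trended prior and the stricter filter, and 0 without any 1 array. In AdeCre against Untreated, 3 became 0 without background correction and 1 as probe means, and 0 to 3 without 1 array; Bcl2l1 kept its call in 12 (ILMN_2647885) and 11 (ILMN_2742557) of the 17 settings and Bcl2l11 (ILMN_1229255) in 3. Over all probes, AdeCre against AdeLacZ gave 802 calls, but 1420 with the offset, 243 without correction, 406 without a filter, 1432 with the trended prior and 514 as gene means; without 1 array the count was 192 (AdeLacZ replicate 2) to 774. AdeLacZ against Untreated gave 834, but 1440, 262, 486 and 1500 under the first 4 of these, and 168 (without Untreated replicate 1) to 849. AdeCre against Untreated gave 2183, but 1327 without correction, and 712 (without Untreated replicate 1) to 2008. With the replicate number as a block, the counts were 498, 442 and 1473 over all probes and 1, 0 and 0 in the family. Both Bcl2l1 calls against Untreated were lost there (adjusted p = 0.0607 and 0.0509), and whether the numbers pair samples is not known. The cause was not tested; leaving out an array also leaves fewer samples. Probes within a few units of the floor set only rough limits.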
